A study of Arabidopsis thaliana with 4 samples.

Results

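The transcripts described here had low signal in Arabidopsis thaliana leaves before probenazole (PBZ) and high signal on both arrays taken 72 h after it. They were chosen on the measured values: a probe set, the group of short probes on an Affymetrix array that reads 1 transcript or a few alike, had to read at or under 20 on both arrays before PBZ and at or over 100 on both arrays after it. Of 16319 probe sets, 47 met both thresholds (0.288%). The selection leaves out 13 genes by name (UGT76B1, UGT73D1, GRX480, MSRB9, AT4G00700, AT2G18690, AT1G05340, AT4G39670, AT2G42360, AT1G78410, AT3G48640, AT3G47480 and AT1G26420), of which 9 met the thresholds, so 38 probe sets are described. The platform's annotation pairs 17 of the 38 with 1 gene and 1 with 2 loci, and lists no gene for the other 20, which are called by their probe set identifier.

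The arrays were made from rosette leaves 5 to 8 of plants that were 5 weeks old. Leaves collected 72 h after roots had been drenched with PBZ at 0.5 mM (2 biological replicates) were set against leaves before PBZ, which had no treatment (0 h, 2 biological replicates). The labels give no genotype or ecotype, and all plants were kept in short days. Untreated or mock-drenched leaves of 72 h were not analysed here, so PBZ and 72 h of further age cannot be told apart.

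Probenazole is a plant defence activator that leads plants to accumulate salicylic acid, the hormone of defence against pathogens that feed on living tissue. Salicylic acid acts through the co-activator NPR1 and TGA transcription factors on many defence genes, a number of which have little transcript in unstressed leaves. Proteins behind such genes range from receptors and calcium sensors, which perceive and pass on a signal, to enzymes, secretory machinery and proteins of no known function.

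Array medians were 32.5 and 27.1 after PBZ and 19.2 and 27.6 before it, so before replicate 1 was the dimmest array. Signals of 20 or less made up 43.1% and 44.2% of the probe sets after PBZ and 50.8% and 44.3% before it, and signals of 100 or more made up 29.7% and 25.5% after PBZ and 17.8% and 24.5% before it. Across probe sets, which do not count as replicates, log2 signals correlated at r = 0.895 between the arrays after PBZ and 0.881 between those before it. Between groups r was 0.876 and 0.862 for before replicate 2 with after replicates 1 and 2, and 0.844 and 0.838 for before replicate 1 with the same arrays. The control probe set for 25S ribosomal RNA read 27.0 and 21.1 after PBZ and 111.1 and 20.7 before it, and its part in the results was not tested. Of the leaf mesophyll markers, 2 of 8 were found on the table through the platform's annotation. PRK, a Calvin cycle enzyme, read 3071.1 and 1855.5 after PBZ and 4527.2 and 4818.9 before it, and SBPASE, of the same cycle, 2971.9 and 2705.6 after PBZ and 3735.0 and 5330.8 before it. The guard cell marker FAMA read between 22.5 and 35.5 on the 4 arrays. The phloem marker SWEET11 read 1118.3 and 1342.5 after PBZ and 2008.7 and 1472.7 before it. The 2 root markers that were found (of 5) read 13.6 or less. No marker of epidermis, trichome, xylem or bundle sheath was found through the annotation. It lists no gene for 38.5% of the probe sets, so markers that were not found may still be on the table. In whole leaves a change in the number of cells of a type and a change in RNA per cell cannot be told apart.

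The thresholds describe a low and a high signal, not an absent and a present transcript, since detection calls were not analysed here and a signal of 20 lies near the middle of before replicate 1. Before PBZ the 38 stood at a median percentile of 34.6 on before replicate 1 and 37.1 on before replicate 2, with a highest percentile of 49.6 and 43.9. After PBZ their median percentile was 83.0 and 82.0, and the lowest was 71.3 and 74.9. A transcript "switched on" is therefore not shown for any of the 38. The lowest quartile of the signals of all 4 arrays together ends at 6.30. Of the 38, 6 read under 6.30 on both arrays before PBZ (AT2G20142, 254975_at, 259550_at, 253181_at, 266292_at and 254453_at), which does not show absence either. A further 14 read under that level on 1 of the 2 arrays and 18 on neither. Folds are ratios of geometric means with any signal before PBZ under 6.30 set to 6.30, and are then written as "at least". Since the thresholds chose the 38 on these same signals, the differences are given as a description with no test.

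**Figure D1:**
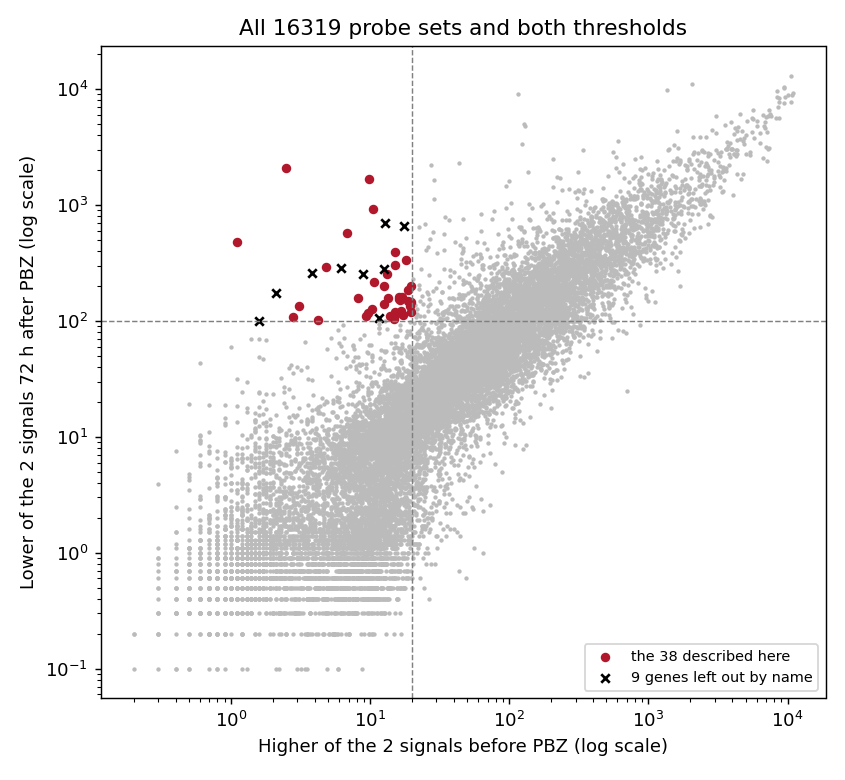
Each point is 1 of 16319 probe sets, by the higher of its 2 signals before PBZ and the lower of its 2 signals 72 h after PBZ, both on log axes, with dashed lines at 20 and 100. The 38 probe sets described (red) and the 9 left out by name (crosses) fill the upper left corner. No probe set met the thresholds turned round on all 4 arrays as deposited.

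Of 6983 probe sets at or under 20 on both arrays before PBZ, the 47 were 0.673%. The same thresholds turned round, at or under 20 on both arrays after PBZ and at or over 100 on both before it, were met by no probe set (0.0%), although 6502 were at or under 20 on both arrays after PBZ and 2789 at or over 100 on both before it. Between replicates of a group single arrays also crossed both levels, though this needs 1 array on each side and the selection 2. After PBZ, 11 probe sets were at or over 100 on replicate 1 and at or under 20 on replicate 2, and 3 the other way. Before PBZ, 2 were at or over 100 on replicate 2 and at or under 20 on replicate 1, and none the other way.

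The 38 differed widely in signal 72 h after PBZ. The signal of a probe set also depends on its probes, so an order of signals is not an order of transcript amounts. On after replicate 1 the lowest read 104.9, the median 204 and the highest 3445.4, and on after replicate 2 they read 102.6, 162 and 2071.1. On before replicate 1 the lowest read 0.5, the median 8.8 and the highest 18.8, and on before replicate 2 they read 0.7, 13.7 and 19.6. A geometric mean over 1000 after PBZ was reached by 3 of the 38, and 23 stayed under 200. The separation between the nearest arrays, the lower signal after PBZ over the higher signal before it with the same floor, ran from 6.05-fold for 257690_at to at least 329-fold for 254975_at.

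**Figure D2:**
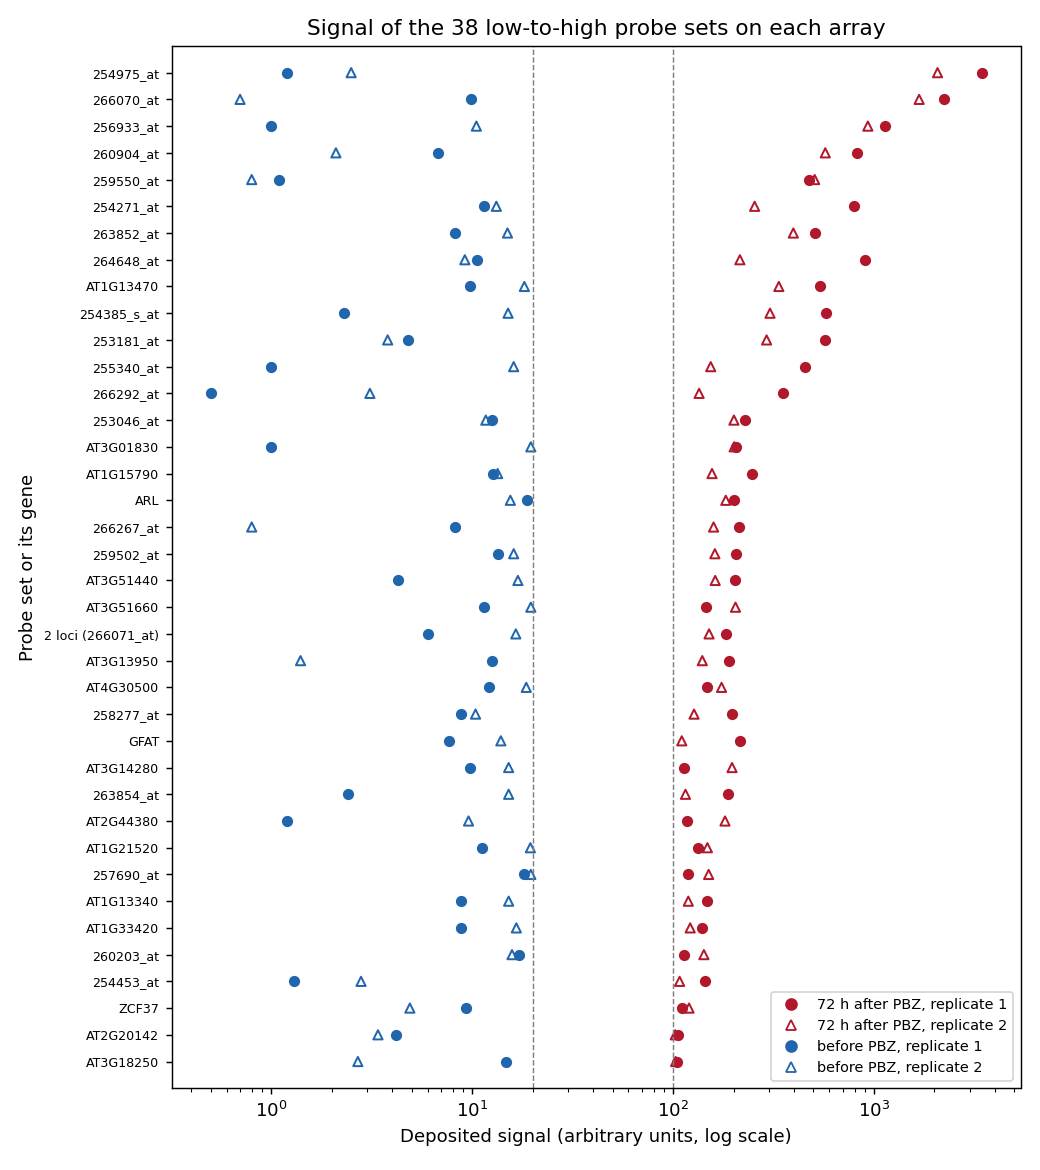
Signal (log axis) of each of the 38 probe sets, ordered by geometric mean after PBZ, on the arrays 72 h after PBZ (red) and before PBZ (blue), with replicate 1 filled and replicate 2 as open triangles and dashed lines at 20 and 100. The 8 rows with the highest signals after PBZ have no gene listed, and many signals before PBZ lie under 6.30.

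Of the 17 named genes, 3 code for proteins of types that carry or receive signals. AT3G01830, a calmodulin-like protein with EF hands, which bind calcium, read 206.6 and 201.4 after PBZ and 1.0 and 19.6 before it (at least 18.4-fold). Its arrays after PBZ were nearly equal, while those before PBZ differed 19.6-fold and one of them lay at the edge of the threshold. AT2G44380, a protein with cysteine- and histidine-rich C1 domains, read 117.7 and 181.4 after PBZ and 1.2 and 9.6 before it (at least 18.8-fold). AT2G20142, a protein with a TIR domain, the signalling domain found in many plant immune receptors, read 106.3 and 102.6 after PBZ and 4.2 and 3.4 before it (at least 16.6-fold). AT2G20142 was the only one of the 17 named genes under 6.30 on both arrays before PBZ, and also the one nearest to the upper threshold.

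A further 3 are enzymes or related to enzymes. GFAT (AT3G24090), the glutamine-fructose-6-phosphate amidotransferase that opens the hexosamine pathway towards UDP-N-acetylglucosamine, a donor for protein glycosylation, read 215.1 and 110.5 after PBZ and 7.7 and 13.9 before it (14.9-fold). The 1.95-fold gap between its arrays after PBZ was the widest among the 17 named genes. AT3G51440, a strictosidine synthase-like protein whose substrate in Arabidopsis is not known, read 203.7 and 162.1 after PBZ and 4.3 and 16.9 before it (at least 17.6-fold). AT3G51660, a tautomerase-like protein related to macrophage migration inhibitory factor of animals, read 145.6 and 204.5 after PBZ and 11.5 and 19.6 before it (11.5-fold). For all 3 enzymes both arrays after PBZ lay above both before it, as the thresholds require, and AT3G51660 was among the 3 probe sets just inside the lower threshold.

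Another 3 belong to membranes or protein sorting. AT4G30500, a predicted membrane protein related to one of the endoplasmic reticulum in animals, read 147.5 and 174.3 after PBZ and 12.2 and 18.6 before it (10.6-fold). AT1G13340, related to yeast IST1, which regulates the ESCRT machinery that sorts membrane proteins into multivesicular bodies, read 146.9 and 119.1 after PBZ and 8.8 and 15.2 before it (11.4-fold). AT3G18250, a small predicted membrane-associated protein, read 104.9 and 103.0 after PBZ and 14.8 and 2.7 before it (at least 10.8-fold). AT3G18250 had the most even arrays after PBZ of the 17, at 1.02-fold, while those before PBZ differed 5.48-fold.

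A pair have roles in growth or the nucleus. ARL (ARGOS-like, AT2G44080), which promotes organ growth through cell expansion and responds to brassinosteroids, read 201.5 and 183.0 after PBZ and 18.8 and 15.5 before it (11.2-fold). AT1G33420, a PHD-finger protein of a type that reads chromatin, read 139.1 and 121.7 after PBZ and 8.8 and 16.6 before it (10.8-fold). ARL had the highest level before PBZ of the 17 named genes, at a geometric mean of 17.1, and lay at percentile 49.6 of before replicate 1.

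The largest group, 6 of the 17, are genes for which no role is given here. AT1G13470, of a plant protein family of no known function, had the highest signals of the named genes after PBZ, at 541.3 and 336.1, against 9.8 and 18.2 before it (31.9-fold). AT1G15790 read 247.1 and 156.3 after PBZ and 12.7 and 13.4 before it (15.1-fold), and its arrays before PBZ were nearly equal. AT3G13950 read 190.8 and 139.8 after PBZ and 12.6 and 1.4 before it (at least 18.3-fold). After PBZ these 3 were higher on replicate 1, while the next 3 were higher on replicate 2. AT3G14280 read 113.3 and 196.6 after PBZ and 9.8 and 15.2 before it (12.2-fold). AT1G21520 read 133.2 and 148.2 after PBZ and 11.2 and 19.5 before it, at 9.51-fold the smallest fold of the 17. ZCF37 (AT1G59590) read 110.2 and 120.1 after PBZ and 9.3 and 4.9 before it, an 11.8-fold separation between the nearest arrays. The probe set paired with 2 loci, AT2G18680 and AT2G18670, read 184.4 and 151.1 after PBZ and 6.0 and 16.5 before it (at least 16.4-fold), and which of the loci gave the signal cannot be told apart.

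Across the function groups, geometric means after PBZ ran from 104 to 204 for the signalling proteins, from 154 to 182 for the enzymes, from 104 to 160 for membrane and sorting proteins, from 130 to 192 for the growth and nuclear pair and from 115 to 427 for the genes of no given role. These ranges of signals overlap. Before PBZ all 3 signalling proteins had at least 1 array under 6.30, with geometric means from 3.39 to 4.43, where a signal is poorly measured.

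The probe sets with no gene listed gave the highest signals. 254975_at read 3445.4 and 2071.1 after PBZ and 1.2 and 2.5 before it (at least 424-fold), which placed it at percentiles 99.5 and 98.9 after PBZ and 12.4 and 15.6 before it. 266070_at read 2230.2 and 1677.4 after PBZ and 9.9 and 0.7 before it (at least 245-fold). 256933_at read 1128.6 and 932.1 after PBZ and 1.0 and 10.5 before it (at least 126-fold). These 3 were the ones above a geometric mean of 1000, and the first of them was under 6.30 on both arrays before PBZ. 260904_at read 821.4 and 572.2 after PBZ and 6.8 and 2.1 before it (at least 105-fold). 259550_at read 477.5 and 506.8 after PBZ and 1.1 and 0.8 before it (at least 78.1-fold), and was even within each group. The median of the geometric means after PBZ was 336 for the 20 probe sets with no gene listed and 154 for the 17 with 1 gene. The 8 probe sets with the highest geometric means had no gene listed, and both kinds were found among the lowest.

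A few of the probe sets with no gene listed were uneven after PBZ. 264648_at read 899.9 and 215.1 after PBZ and 10.6 and 9.2 before it (44.6-fold), and the 4.18-fold gap between its arrays after PBZ was the widest of the 38. 254271_at read 793.7 and 254.7 after PBZ and 11.5 and 13.2 before it (36.5-fold). 255340_at read 454.9 and 154.0 after PBZ and 1.0 and 16.1 before it (at least 26.3-fold). With 266292_at, at 351.1 and 134.8 after PBZ and 0.5 and 3.1 before it (at least 34.5-fold), these were the 4 whose arrays after PBZ differed by more than 2-fold, and in each of them after replicate 1 was the higher. The levels 72 h after PBZ of these 4 are poorly known, and the gap between 2 arrays does not bound them. The other 11 with no gene listed had geometric means after PBZ between 125 and 449, and 253181_at, at 570.6 and 292.1 after PBZ and 4.8 and 3.8 before it (at least 64.8-fold), had the largest fold of them. 1 of the 38, 254385_s_at, is of a type shared between transcripts, and read 576.4 and 303.8 after PBZ and 2.3 and 15.1 before it (at least 42.9-fold).

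The median gap between the 2 arrays over the 38 was 1.33-fold after PBZ and 1.84-fold before it, and the widest was 4.18-fold after PBZ and 19.6-fold before it. After PBZ 4 of the 38 differed by more than 2-fold between the arrays, and before PBZ 16 did. The thresholds fix high signals after PBZ and low ones before it, so these gaps do not compare the groups' replicate error. The 6945 other probe sets at or under 20 on both arrays before PBZ had a median gap of 2.24-fold there. After replicate 1 was the higher of the arrays after PBZ for 29 of the 38 (76.3%), and for 1987 of the 3821 other probe sets at or over 100 on both (52.0%), where the median gap was 1.30-fold. Before replicate 2 was the higher array before PBZ for 25 of the 38. The arrays thus did not contribute evenly: after replicate 2 was mostly the array nearest to the upper threshold and before replicate 2 the one nearest to the lower.

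**Figure D3:**
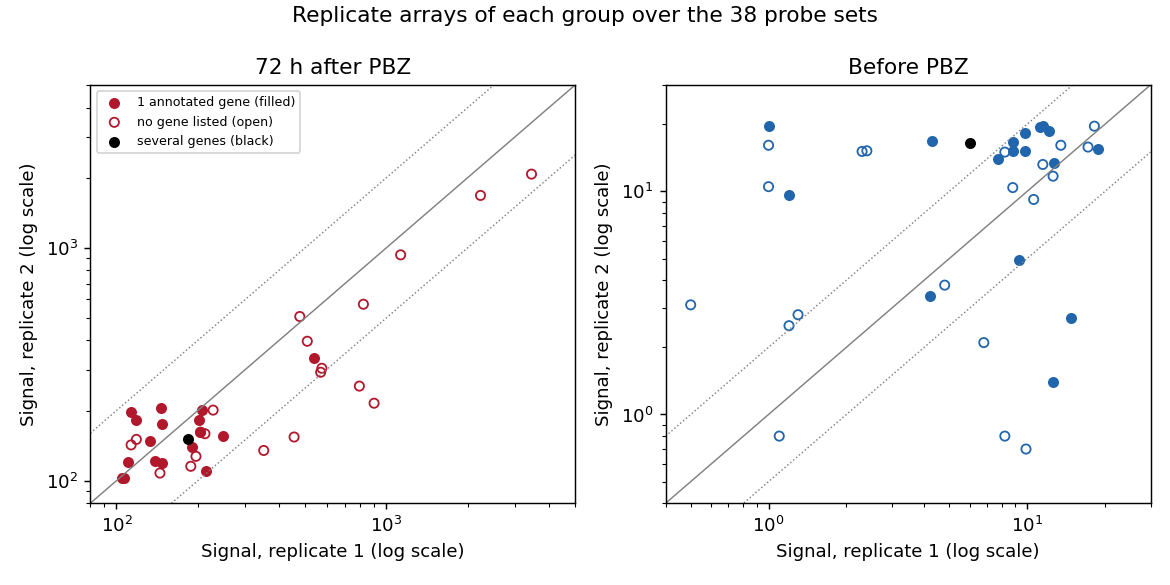
Signal of the 38 probe sets on replicate 1 (horizontal, log axis) and replicate 2 (vertical, log axis), 72 h after PBZ on the left and before PBZ on the right, with the line of equal signal (solid) and 2-fold lines (dotted). After PBZ 4 points lie beyond the 2-fold lines, all with replicate 1 higher, and before PBZ 16 do.

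Several of the 38 lie close to a threshold, and so do probe sets just outside. Inside the lower threshold, AT3G51660, 257690_at and AT3G01830 had their higher signal before PBZ at 19.6. Outside it, 261167_at, 260551_at and AT1G76970 had theirs at 20.5, 21.1 and 21.4, with signals of 408.6 and 228.8, 138.4 and 225.5, and 166.9 and 107.2 after PBZ. Inside the upper threshold the lower signal after PBZ was 102.6 for AT2G20142, 103.0 for AT3G18250 and 107.8 for 254453_at. Outside it AT1G08050, 252825_at and AT3G62780 stood at 99.5, 98.5 and 94.0. These pairs differ by less than the usual gap between replicates, so the edge of the group is not sharp.

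How many probe sets met the thresholds depended on single arrays and on scaling. With before replicate 2 left out 91 probe sets met them, and with after replicate 2 left out 75 did, against 42 without before replicate 1 and 41 without after replicate 1, counted without the genes left out by name. All 38 are part of each of these counts by construction. After quantile normalization, which gives all arrays the same distribution, 28 probe sets met the thresholds, and with each array scaled to the same median 30 did. All 28 and all 30 were among the 38, a share of 73.7% and 78.9% of them. ARL, AT2G20142, AT2G44380, AT3G14280, AT3G18250, ZCF37, 257690_at and 260203_at were outside the thresholds under both scalings, and AT1G21520 and 254453_at under quantile normalization. So 10 of the 17 named genes kept their place under quantile normalization and 11 under median scaling, among them AT1G13470, AT3G01830, GFAT, AT3G51440 and AT1G13340. At stricter thresholds of 10 or less before PBZ and 200 or more after it, 5 probe sets remained (254975_at, 266070_at, 260904_at, 259550_at and 253181_at), none of them with a gene listed. At looser ones of 30 and 80 there were 95. Both counts are also without the genes left out by name. The turned-round thresholds, met by none as deposited, were met by 1 probe set, 253579_at, under either scaling, by 2 at the looser thresholds, by 2 without before replicate 1 and by 3 without after replicate 1, and by none without before replicate 2, without after replicate 2 or at the stricter thresholds.

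**Figure D4:**
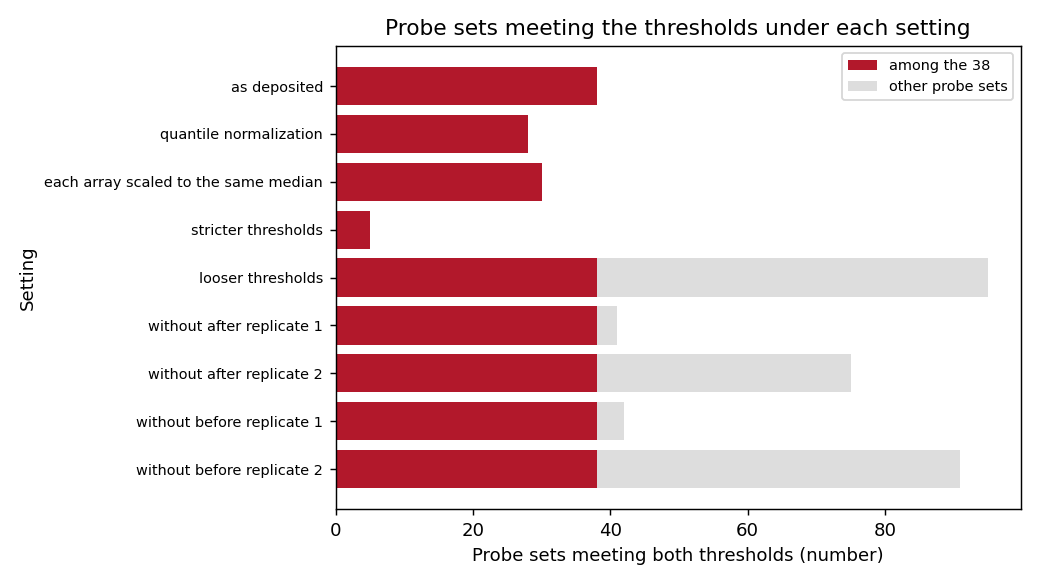
Number of probe sets that met both thresholds under each setting (bars from 0), with those among the 38 in red and others in grey. Leaving out before replicate 2 or after replicate 2 widens the group to 91 and 75, while either scaling narrows it to 28 or 30.

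Features that the thresholds did not use were compared as descriptions. The median gene length was 1485 bases for the 17 named genes and 2109 bases for the 9570 genes of the table that matched a TAIR10.1 locus. The 17 ran from 367 bases for AT3G18250 to 3368 for GFAT. A gene name other than the locus was listed for 3 of the 17 (ARL, GFAT and ZCF37). The other 14 (82.4%) went by their locus alone, as did 88.8% of the genes of the table. Of the 17 genes 6 lie on chromosome 1, 3 on chromosome 2, 7 on chromosome 3 and 1 on chromosome 4. Those of the table number 3151, 2046, 2651 and 1653 on these chromosomes, with 69 on chromosome 5. So few genes of chromosome 5 were matched that the lack of any of the 17 there does not describe the group. No gene was listed for 52.6% of the 38 probe sets and for 38.5% of all 16319. The 9 probe sets left out by name all had a gene listed. Leaving them out raises the share of the 38, so the 2 shares are not read as a difference. A gene not listed may reflect the annotation used here rather than the transcript, which was not tested.

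None of the 17 had another of the 17 as its next protein-coding gene. Of the 34 adjacent genes 15 were found on the table through the annotation, and others may be among the probe sets with no gene listed. Of the 15, 10 were bright enough to be tested with limma over all probe sets. Among these 1 rose (10.0%), against 4.74% of 6813 tested probe sets of 1 locus, of which 0.22% fell. It was AT3G51670, a SEC14-like protein of the patellin family next to AT3G51660, which read 463.4 and 442.6 after PBZ and 104.6 and 133.7 before it (log2 change 1.94 ± 0.54 SE, limma adjusted p = 0.0257). It did not pass with the replicate number as a block (adjusted p = 0.0619), without an intensity trend (0.163), or when before replicate 1 (0.139), after replicate 1 (0.369) or after replicate 2 (0.329) was dropped. AT3G51450, next to AT3G51440 and also strictosidine synthase-like, read 109.7 and 98.7 after PBZ and 67.8 and 59.2 before it (log2 change 0.72 ± 0.56, limma adjusted p = 0.569). AT2G44370, next to AT2G44380 and like it a protein with C1 domains, read 2.2 and 9.6 after PBZ and 0.7 and 1.6 before it and was too dim to be tested.

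Other calcium sensors that were found by gene name gave no call, and more may be among the probe sets with no gene listed. On simulated data the fit recovered 12 of 70 changes of log2 2, so no call does not mean no change. Besides AT3G01830, 6 genes listed as calmodulin-like or EF-hand proteins were on the table and 5 were tested: CML23, CML30, CML38, CML41 and CML42. Of these 5 none rose or fell in limma, with log2 changes from -2.16 to 0.88. The lowest limma adjusted p was 0.527, and 0 had an unadjusted p under 0.05. The -2.16 (± 1.63 SE) was that of CML38, which read 0.4 and 14.0 after PBZ and 4.2 and 26.7 before it. It thus rests partly on signals under 6.30. None of the 6 read over 66.7 after PBZ. Over all 19 families that were looked for by gene name, 113 genes were tested, of which 11 rose and 1 fell (limma, adjusted p under 0.05). Only 8 of the 19 families had 3 or more tested genes, and some had none. Glycosyltransferases gave 3 rises of 26, cytochromes P450 2 of 18, ubiquitin ligases 1 of 10 and transporters 0 of 23 (2 with an unadjusted p under 0.05). WRKY transcription factors gave 1 rise of 6, and glutathione S-transferases 0 rises and 1 fall of 10. Over all 12239 tested probe sets 653 rose (5.34%) and 30 fell (0.245%). None of the 17 named genes was found in these families by its listed names, since most have none, so the counts do not bear on the group described.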

How the data were processed

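Biotin-labelled cRNA of total RNA was hybridised to Affymetrix arrays, per the labels' protocols. The submitters' processing notes name GCOS, with no version or scaling target given in the sources used here. The authors deposited 1 linear intensity per probe set and array, and 64 control rows were set aside here. Genes come from the platform's annotation (9685 probe sets with 1 gene, 356 with several, 6278 with none listed) and TAIR10.1 names, which matched 9682 of the first. The thresholds were applied to the deposited intensity. Members, gene families, function groups and tests were chosen with earlier results of these data known, and protein roles are background knowledge.

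limma 3.58.1 in R 4.3.3 compared the groups on log2(signal), with 2 zeros set to 0.1, the lowest 0.25 by mean left out and an intensity trend, 2-sided with Benjamini-Hochberg adjustment. With 2 arrays per group it had 2 residual and 27.2 prior degrees of freedom. The p-values thus rest mostly on the spread between these samples over probe sets of like signal, and little on each probe set's own. On simulated data of 12239 probe sets it recovered 0 of 60 changes of log2 1, 12 of 70 of log2 2 and 58 of 70 of log2 4. The main fit did not pair samples of the same replicate number. Same-numbered deviations correlated at -0.064, which does not settle whether the samples were paired.

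By rule, all 17 genes and the 3 probe sets nearest to each side of a threshold were named. Other probe sets and adjacent genes were singled out after their values were seen. Promoter and protein sequences were not analysed here. The floor of 6.30 was chosen with these data known.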

Additional observations from a re-analysis of the deposited data

Results flagged for a closer look

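The array carries 19 control probe sets for Arabidopsis transcripts that the comparisons do not use. After dividing by the array median, 5 of them had both signals after PBZ above both signals before PBZ. For GAPDH, a glycolytic enzyme, the differences in log2 were 0.75 for the 3' set and 0.76 for the middle set of the first version, and 0.86 for the 3' set and 0.62 for the 5' set of the second version. For actin, a cytoskeletal protein, the 3' set of the second version differed by 0.32. Differences between groups for these sets were not tested. The GAPDH sets are for the same enzyme and do not count as separate observations. The share of all probe sets with this order is not given here, so 5 of 19 is not read as a result about these sets.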

How the results depend on the processing

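The count of 38 probe sets became 5 at the stricter thresholds and 95 at the looser ones, and ranged from 41 (without after replicate 1) to 91 (without before replicate 2), at 75 without after replicate 2. The log2 differences of the 38 lay between 2.36 and 11.43 in 228 values, under both scalings and with each array left out. Unlike the folds above, these differences were taken without the floor of 6.30, and the largest rest on poorly measured signals before PBZ. With an array left out their direction is fixed by the thresholds, so it is no sign of stability. The differences moved by more than the replicate SD in 21 values, all of them under scaling. With 2 arrays per group, leaving 1 out cannot move a difference by more than that SD, so the single arrays were not put to this check. Quantile normalization moved the median log2 change over the tested probe sets to -0.06, against 0.37 without it. Of the limma counts, the 653 rises became 157 without an intensity trend and ranged from 213 (without after replicate 1) to 1145 (without before replicate 2) with 1 array left out, at 308 without before replicate 1 and 340 without after replicate 2. The 30 falls became 278 after quantile normalization, 179 with each array centred on its median, 48 with the lowest 0.5 left out, 15 with dim probe sets kept and 8 without an intensity trend, and ranged from 11 (without before replicate 1) to 41 (without after replicate 1), at 12 without after replicate 2. With quantile normalization there were 546 rises, so the split between rises and falls depends on scaling. The 11 family genes that rose became 5 without an intensity trend and ranged from 4 (without after replicate 1) to 16 (without before replicate 2), at 7 without before replicate 1. With the replicate number as a block there were 543 rises, 29 falls and 8 family genes. The alternatives for promoters and protein features were not run. Only 2 arrays per group limit the precision, and signals under 6.30 are poorly measured.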
